A study of Mus musculus with 8 samples.

Results

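Rab, Arf and Arl genes encode small GTPases of membrane traffic, and they were followed here in mouse Leydig cells exposed to bisphenol A (BPA). Members were chosen by symbol alone: Rab, Arf or Arl, then a number and an optional letter, with no exchange factor, GAP or effector. Of 85 such symbols in the gene name table, 57 had a row in the deposited count table of 12404 genes, and the other 28 were not analysed here. The filter on low counts kept 48 of the 57 for testing. Arl3, Arl9, Rab4a, Rab9, Rab13, Rab20, Rab36, Rab39b and Rab42 were too low, and their reads are given beside their relatives.

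TM3 cells are a mouse line derived from Leydig cells, which make testosterone in the testis, and BPA is an estrogen-like chemical of plastics. Both conditions are of this 1 line: cells after BPA exposure and cells labelled normal, each with 2 RNA-seq libraries and 2 MeRIP-seq libraries, in which an antibody enriches RNA fragments carrying N6-methyladenosine (m6A). The labels used here give neither a dose nor an exposure time, and do not say whether replicates came from separate cultures, so that p-values reflect only how much these libraries vary, possibly for technical reasons. The design text names the RNA-seq libraries as the input of the MeRIP-seq.

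Rab, Arf and Arl proteins switch between a GDP-bound form in the cytosol and a GTP-bound form on membranes, where they recruit coats, tethers and motor adaptors. Each marks particular membranes, so that the set present in a cell describes its routes between the endoplasmic reticulum (ER), Golgi, plasma membrane, endosomes and lysosomes. In steroid-producing cells endosomes and lysosomes also handle cholesterol taken up with lipoproteins. Rab and Arl genes often come as close relatives with overlapping tasks, such as Rab5a, Rab5b and Rab5c.

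Promoter sequences are shown for the 3 members that carry the motif TCACGTGA, the core of the element through which the transcription factor TFEB binds lysosomal and autophagy genes, so that the members sharing it can be set beside their reads. Windows from RefSeq, build GRCm38.p6, run from 250 bases before to 50 bases after each start, and 48 of the 57 members matched, with 56 promoters. The shorter motif CACGTG, which lies within TCACGTGA, occurred in 14.3% of member promoters, in 8 genes, and in 7.15% of all 32851 promoters. TCACGTGA occurred in 5.36% of member promoters and in 0.974% of all. Both motifs read the same on either strand, and a match describes these letters and is no evidence of binding. The windows are Rab21 at chr10:115315542-115315841 (minus strand), Rab5a at chr17:53478984-53479283 (plus strand) and Arl2 at chr19:6141088-6141387 (minus strand). Capitals mark TCACGTGA, which begins 31 bases before the start in Rab21, 96 in Rab5a and 69 in Arl2.
Rab21: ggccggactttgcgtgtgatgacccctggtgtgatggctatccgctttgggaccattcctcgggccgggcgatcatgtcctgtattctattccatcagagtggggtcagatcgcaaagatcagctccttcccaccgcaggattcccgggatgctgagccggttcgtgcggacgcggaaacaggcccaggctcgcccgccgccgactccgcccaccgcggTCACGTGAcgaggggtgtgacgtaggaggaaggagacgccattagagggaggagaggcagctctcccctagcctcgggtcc
Rab5a: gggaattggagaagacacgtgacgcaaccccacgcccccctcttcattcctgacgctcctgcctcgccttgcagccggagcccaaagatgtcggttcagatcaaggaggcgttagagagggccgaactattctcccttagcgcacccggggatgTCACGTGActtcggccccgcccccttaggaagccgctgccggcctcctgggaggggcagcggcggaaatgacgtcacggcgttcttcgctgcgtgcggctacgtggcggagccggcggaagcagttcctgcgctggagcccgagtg
Arl2: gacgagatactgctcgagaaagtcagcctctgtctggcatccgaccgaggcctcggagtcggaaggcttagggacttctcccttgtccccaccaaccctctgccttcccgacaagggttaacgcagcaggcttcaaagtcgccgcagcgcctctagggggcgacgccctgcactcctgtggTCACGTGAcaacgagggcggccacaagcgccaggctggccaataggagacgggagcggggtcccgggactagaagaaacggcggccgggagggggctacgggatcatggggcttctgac

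These 3 members did not share a pattern of reads. Rab21, an early endosome GTPase of integrin uptake, had 1835 and 3 reads in BPA cells and 1465 and 557 reads in normal cells. Rab5a, which drives fusion of early endosomes, had 552 and 279 reads in BPA cells and 402 and 990 reads in normal cells. Arl2, which acts with the tubulin folding cofactors, had 62 and 0 reads in BPA cells and 856 and 164 reads in normal cells. Groups overlapped for Rab21 and Rab5a, and both BPA libraries lay below both normal libraries for Arl2.

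The RNA-seq libraries held 8813870 and 6305121 reads in BPA cells and 10455643 and 7517482 reads in normal cells. Members took 0.717% and 0.831% of them in BPA cells and 0.621% and 0.834% in normal cells. At least 100 reads were seen for 28 and 30 of the 57 members in BPA libraries and for 48 and 45 in normal libraries. Coverage of genes in general was lower in BPA too, where the median gene of the table had 15 and 2 reads, against 233 and 150 in normal cells. In bulk RNA, fewer cells of a type and less RNA per cell cannot be told apart. Of 10 Leydig markers, Scarb1, Tspo and Gata4 had a row, with 1997 and 392 reads summed in BPA cells and 470 and 290 in normal cells. Scarb1 carried most of this, with 1677 and 331 reads in BPA cells and 458 and 150 in normal cells. Tspo had 320 and 61 reads in BPA cells and 12 and 36 in normal cells, while Gata4 had 0 and 0 in BPA cells and 0 and 104 in normal cells. Star, Cyp11a1, Cyp17a1, Hsd3b1, Insl3, Nr5a1 and Lhcgr had no row. All 12404 genes with a row had a read in at least 1 library, so a missing row may mean 0 reads. The Leydig label was therefore not borne out by these genes, and whether the cells lacked their RNA was not tested. Macrophage markers (2 of 5 with a row) summed to 181 and 436 reads in BPA cells and to 0 and 151 in normal cells. Cd68 had 174 and 436 reads in BPA cells and 0 and 59 in normal cells, and Cd14 had 7 and 0 in BPA cells and 0 and 92 in normal cells. Sertoli markers (3 of 6) summed to 2287 and 721 reads in BPA cells and to 1919 and 2308 in normal cells. Wt1 carried most of these, with 1952 and 516 reads in BPA cells and 1563 and 2307 in normal cells. Clu had 335 and 205 reads in BPA cells and 221 and 1 in normal cells, and Dhh had 0 and 0 in BPA cells and 135 and 0 in normal cells. The germ cell marker Stra8 (1 of 4) had 0 and 30 reads in BPA cells and 0 and 0 in normal cells. Acta2, alone of 5 smooth muscle and endothelial markers, had 498 and 1270 reads in BPA cells and 80 and 352 in normal cells. The part of depth and of these other markers in the differences below was not tested.

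The first question was which of these GTPase genes differed in RNA level between BPA-exposed and normal cells. Arf6, Rab28 and Arl8b had more RNA in both BPA libraries, and Rab11b, Rab32 and Rab5b were at 0 or 1 read in both. None of the 48 passed the quasi-likelihood test of edgeR after Benjamini-Hochberg adjustment over 8645 genes (smallest adjusted p 0.372), where 0.0% of all genes passed. At an unadjusted p under 0.05, 3 members were higher (6.25%, against 2.41% of all genes) and 3 were lower (6.25%, against 7.23%). DESeq2 called Arf6 among the higher genes (1 of 48, 2.08%, against 0.521% of all genes). Among the lower ones it called Rab11b and Rab5b (2 of 48, 4.17%, against 2.53%). Shares of all genes called by DESeq2, here and below, count genes without an adjusted p as not called. All 48 tested members had an adjusted p, so the member and all-gene shares are not fully alike. With other settings of edgeR, the adjusted p of the 6 members at an unadjusted p under 0.05 (Arf6, Rab28, Arl8b, Rab11b, Rab32 and Rab5b) lay between 0.228, for Arf6, and 0.995.

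By direction, 21 of the 48 fitted log2 fold changes were positive (43.8%, against 49.5% of all genes). Their median was -0.43, and that of all tested genes -0.02, both also with genes at 0 reads set to their bound. The BPA libraries were both above the normal ones in 6 members (12.5%, against 12.8% of all genes): Arf3, Arf6, Arl1, Arl8b, Rab28 and Rab35. Both lay below in 15 (31.2%, against 27.2%). These shares were near those of all genes. Abundance divided the members in the same direction as the other genes. Of 12 members with a mean of at least 1000 reads, 10 had a positive log2 fold change, with a median of 0.44. In a fit of such genes alone 8 of these members were positive. Of all 1756 genes of that abundance, 1202 were positive, with a median of 0.34. Of the 36 tested members below it, 11 were positive, with a median of -0.78. Of all 6889 such genes, 3073 were positive, with a median of -0.25.

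**Figure D1:**
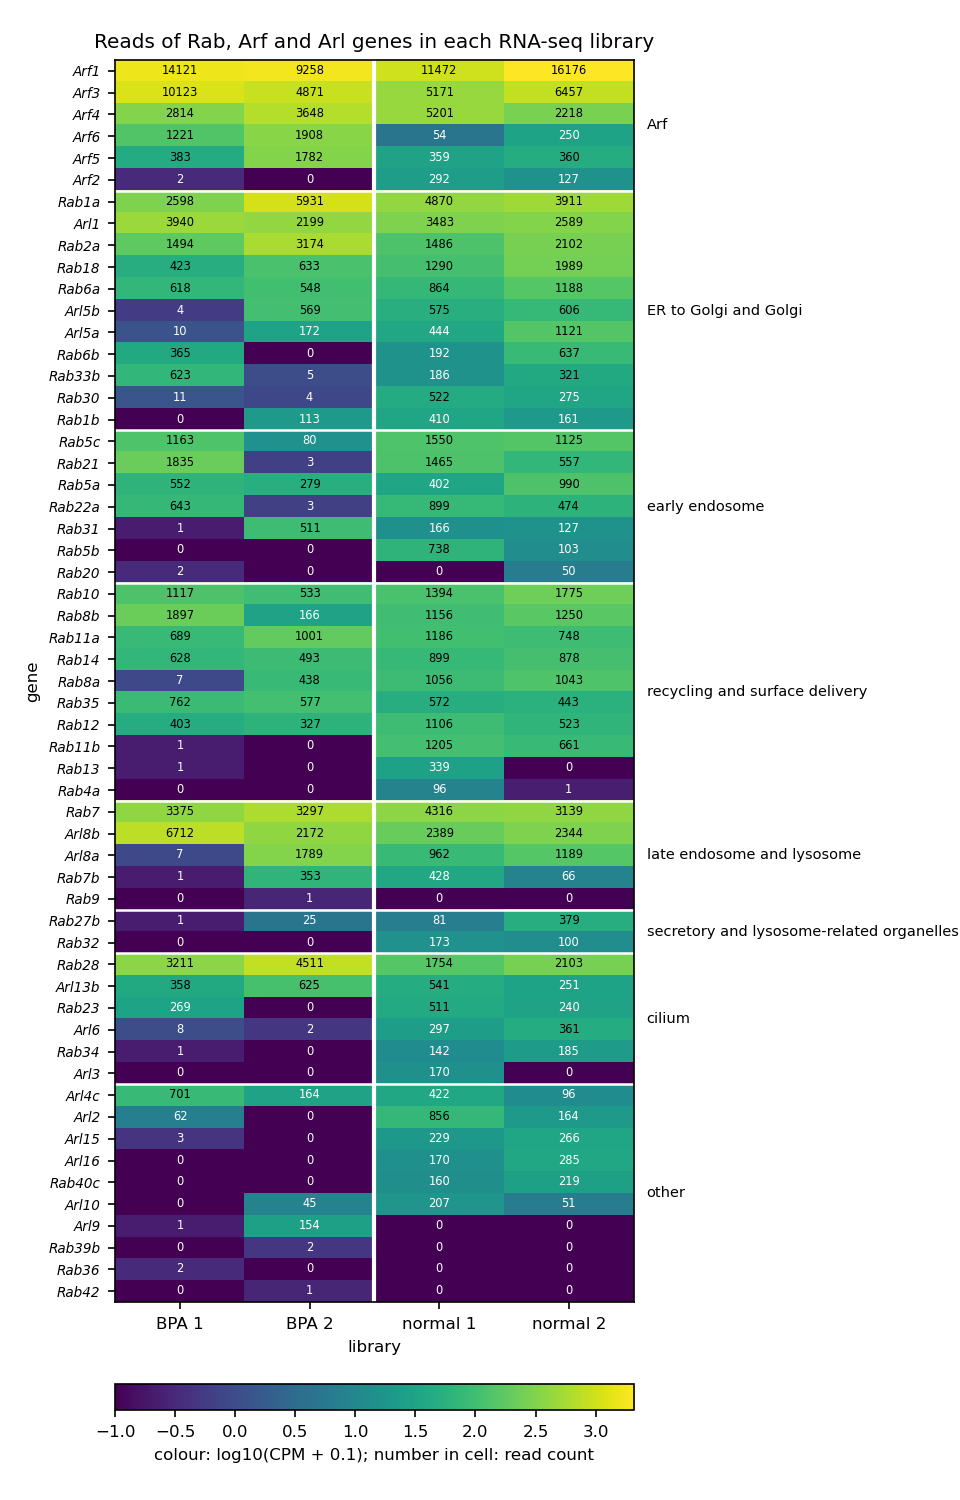
Reads of the 57 members in each RNA-seq library (columns: BPA 1, BPA 2, normal 1, normal 2), grouped by role, with colour for log10 of counts-per-million (CPM) plus 0.1 and the read count in each cell. Dark cells at or near 0 reads are more frequent in the BPA columns, where 28 and 30 members reached 100 reads, than in the normal columns, where 48 and 45 did.

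The Arf genes, whose products recruit coats at the Golgi and act at the cell surface, held the member with the smallest p. Arf6, which works at the plasma membrane in endocytic recycling and actin remodelling, had 1221 and 1908 reads in BPA cells and 54 and 250 reads in normal cells. On the counts-per-million (CPM) scale it averaged 249 ± 152 in BPA cells and 18.4 ± 19.4 in normal cells (SD, n = 2 each). Each BPA value was above both normal values. Its log2 fold change was 3.90 ± 1.11 (SE, derived here and below from the F statistic of edgeR's quasi-likelihood test). That test gave an unadjusted p of 0.00369 and an adjusted p of 0.372. DESeq2 gave Arf6 an adjusted p of 0.0272. With 1 library left out at a time, its log2 fold change lay between 3.02 and 5.70. As a share of all Arf1 to Arf6 reads, Arf6 was 4.26% and 8.89% in BPA cells (exact 95% intervals 4.03 to 4.50 and 8.51 to 9.28) and 0.239% and 0.977% in normal cells (0.180 to 0.312 and 0.860 to 1.11).

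Arf3, a class I Arf of the trans-Golgi network, had 1176 and 910.3 CPM in BPA cells and 448 and 828 CPM in normal cells. The groups did not overlap, and its log2 fold change was 0.72 ± 0.45 with an unadjusted p of 0.132 in edgeR. Arf1, which brings the COPI coat and clathrin adaptors to Golgi membranes, had 1641 and 1730.2 CPM in BPA cells and 994 and 2074 CPM in normal cells. The BPA values lay between the normal ones. Arf4, a class II Arf, overlapped too, with 327 and 682 CPM in BPA cells and 451 and 284 CPM in normal cells. Arf5, the other class II Arf, had 383 and 1782 reads in BPA cells and 359 and 360 reads in normal cells, so its excess stood in BPA replicate 2. Arf2, the remaining class I gene, had 2 and 0 reads in BPA cells and 292 and 127 reads in normal cells. The ratio of its summed, depth-scaled reads was 0.00661, with an exact 95% counting interval of 0.000798 to 0.0240. Intervals here and below cover counting error alone, because these reads carry no molecular identifiers and need not be independent molecules. Of the 6 Arf genes 5 had a positive log2 fold change (49.5% of all genes did), Arf2 being the exception. Arf1 turned to -0.11 in the fit of abundant genes alone. The count of positive Arf genes was 4 of 6 without BPA replicate 2, where Arf4 was negative, and without normal replicate 1, where Arf1 was.

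Among the genes of ER-to-Golgi and Golgi traffic, 4 of 11 had a positive log2 fold change, and 1 lay wholly above and 2 wholly below normal cells. Of all tested genes, 49.5% were positive, 12.8% lay wholly above and 27.2% wholly below. Arl1, which recruits golgin tethers to the trans-Golgi network, was the one above, with 458 and 411 CPM in BPA cells and 302 and 332 CPM in normal cells. The log2 fold change was 0.46 ± 0.53, with an unadjusted p of 0.395 in edgeR. Rab1a, which tethers vesicles from the ER to the Golgi, had 302 and 1108 CPM in BPA cells and 422 and 502 CPM in normal cells, so the normal values lay between the BPA ones. Rab2a, a Golgi GTPase that also serves fusion with lysosomes, had 174 and 593 CPM in BPA cells and 129 and 269.6 CPM in normal cells. Rab6a, of transport back through the Golgi, had 71.8 and 102 CPM in BPA cells and 74.9 and 152 CPM in normal cells. These 3 overlapped between groups.

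Rab30, a Golgi GTPase, and Arl5a, which recruits a tether for vesicles returning from endosomes, were the members of this group below normal cells in both libraries. Rab30 had 11 and 4 reads in BPA cells and 522 and 275 reads in normal cells, with an unadjusted p of 0.0581 in edgeR. Arl5a had 10 and 172 reads in BPA cells and 444 and 1121 reads in normal cells. Its relative Arl5b had 4 and 569 reads in BPA cells and 575 and 606 reads in normal cells. Both Arl5 genes were thus near 0 in BPA replicate 1 and not in replicate 2. Rab18, which acts on lipid droplets and the ER, had 423 and 633 reads in BPA cells and 1290 and 1989 reads in normal cells, and overlapped once scaled for depth. The remaining Golgi members overlapped as well: Rab1b, Rab6b and Rab33b, the last also a partner of the autophagy protein Atg16l1.

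The early endosome group had 2 of 6 tested members with a positive log2 fold change, against 49.5% of all genes. Rab5b had 0 and 0 reads in BPA cells and 738 and 103 reads in normal cells, which makes it at least 202-fold lower in BPA against a floor of 3 reads over the group. Its unadjusted p was 0.0463 in edgeR, and its adjusted p was 0.372 in edgeR and 0.0371 in DESeq2. The normal replicates themselves differed, at 64.0 and 13.2 CPM. Rab5c, with the same task in early endosome fusion, had 1163 and 80 reads in BPA cells and 1550 and 1125 reads in normal cells. Of all Rab5 reads, Rab5b was 0% in both BPA libraries, where 0 of 1715 and 0 of 359 reads allow up to 0.175% and 0.836%, and 27.4% and 4.64% in normal cells. Rab22a and Rab31, close relatives in early endosome and trans-Golgi sorting, were split between the BPA replicates in opposite ways. Rab22a had 643 and 3 reads in BPA cells and 899 and 474 reads in normal cells, and Rab31 had 1 and 511 reads in BPA cells and 166 and 127 reads in normal cells. Rab20, a phagosome GTPase too low to test, had 2 and 0 reads in BPA cells and 0 and 50 in normal cells.

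Recycling and surface delivery held the member with the lowest unadjusted p among those below normal cells. Rab11b, which with Rab11a directs cargo from recycling endosomes to the surface, had 1 and 0 reads in BPA cells and 1205 and 661 reads in normal cells. Rab11a had 689 and 1001 reads in BPA cells and 1186 and 748 reads in normal cells. So reads of Rab11a were present in all 4 libraries, while those of Rab11b were nearly confined to the normal ones. The ratio of Rab11b in BPA over normal cells, scaled for depth, was 0.000743 (exact 95% counting interval 1.9e-05 to 0.00414), with an unadjusted p of 0.0160 and an adjusted p of 0.372 in edgeR and an adjusted p of 0.000713 in DESeq2. Rab11b made up 0.145% and 0% of Rab11 reads in BPA cells (0 of 1001 reads allows up to 0.300%) and 50.4% and 46.9% in normal cells. The related sequence Rab11b-ps2 had 2 and 35 reads in BPA cells and 262 and 19 in normal cells. The sources used here do not give how reads that match several copies were counted, so the Rab11b count is uncertain.

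**Figure D2:**
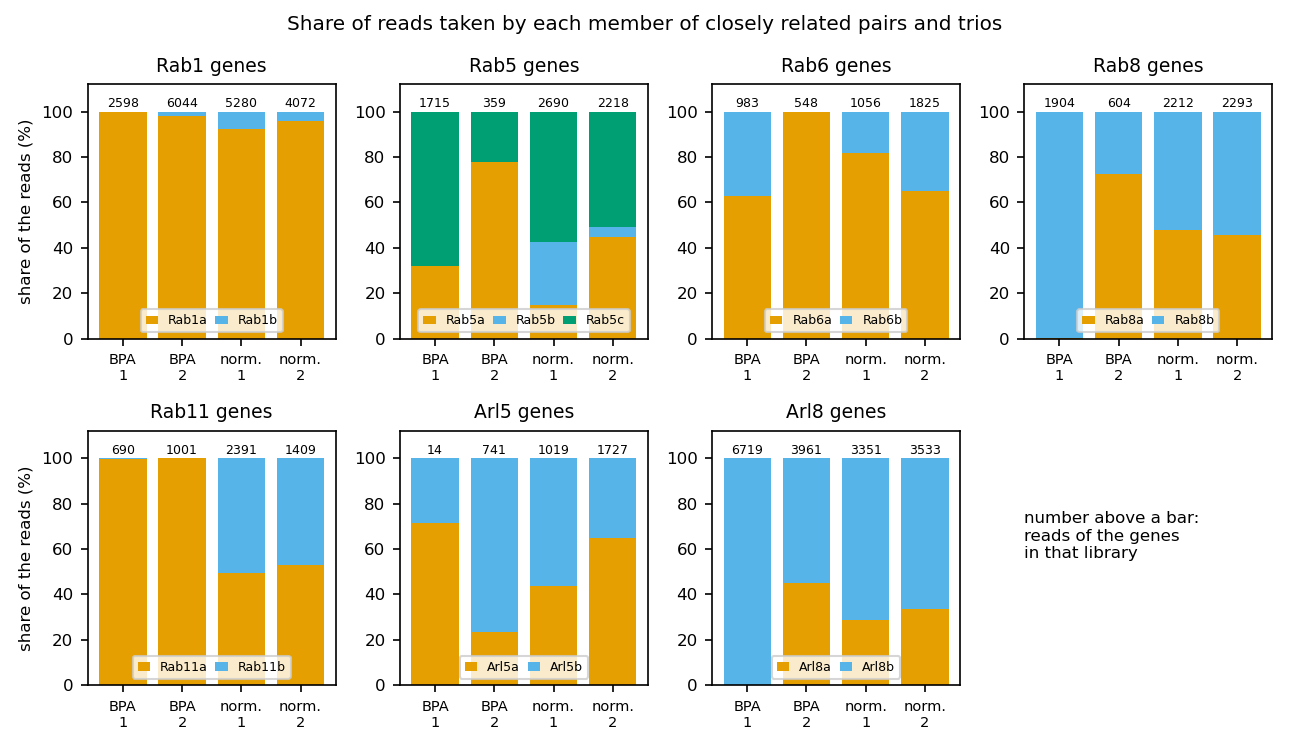
Share of reads (%, vertical axis) taken by each member of 7 pairs or trios of relatives in the libraries BPA 1, BPA 2, normal 1 and normal 2, with the summed reads above each bar. Rab11b takes 0.145% and 0% in BPA and 50.4% and 46.9% in normal cells, while for Rab8 and Arl8 the 2 BPA bars differ from each other more than from the normal bars.

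Rab8a and Rab8b, which carry cargo from the trans-Golgi network to the surface and the cilium, showed a split within BPA. Rab8a had 7 and 438 reads in BPA cells and 1056 and 1043 reads in normal cells. Rab8b had 1897 and 166 reads in BPA cells and 1156 and 1250 reads in normal cells. Rab8a was therefore 0.368% and 72.5% of Rab8 reads in BPA cells and 47.7% and 45.5% in normal cells. In this share the BPA replicates stood on opposite sides of both normal ones. By CPM, Rab8a lay below both normal libraries in both BPA libraries, at 0.81 and 81.9 in BPA cells and 91.5 and 134 in normal cells. Rab8b overlapped between the groups.

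Rab35, of the fast recycling route and cytokinesis, was above normal cells in both BPA libraries, with 88.5 and 108 CPM in BPA cells and 49.6 and 56.8 CPM in normal cells. Its log2 fold change was 0.88 ± 1.02, with an unadjusted p of 0.406 in edgeR. Rab10, which inserts glucose transporters into the plasma membrane of fat cells, had 129.8 and 99.6 CPM in BPA cells and 121 and 228 CPM in normal cells, with overlap. The antisense gene Rab10os had 667 and 0 reads in BPA cells and 0 and 167 in normal cells, and the sources used here do not give whether counting used strand. Rab12, which guides transferrin receptor to lysosomes, lay below in both, with 46.8 and 61.1 CPM in BPA cells and 95.8 and 67.1 CPM in normal cells. Rab14, of trafficking between the trans-Golgi network and endosomes, overlapped. Rab13, a tight junction GTPase, had 1 and 0 reads in BPA cells and 339 and 0 in normal cells, and Rab4a, of fast recycling, had 0 and 0 reads in BPA cells and 96 and 1 in normal cells. The normal replicates alone thus disagreed for both of these untested genes.

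In the late endosome and lysosome group 4 of 4 tested members had a positive log2 fold change, against 49.5% of all genes. Other positive counts were 3 of 8 for recycling and surface delivery, 2 of 5 for the cilium, 0 of 2 for secretory organelles and 1 of 6 for the remaining members. The late endosome and lysosome count was 2 of 4 with replicate number as a block, where Arl8a had -0.17 and Rab7b -0.0012. It was also 2 of 4 without BPA replicate 2, where Arl8a had -7.08 and Rab7b -7.56, and 3 of 4 without normal replicate 2. Arl8b, which couples lysosomes to kinesin for movement towards the cell edge, had 6712 and 2172 reads in BPA cells and 2389 and 2344 reads in normal cells. Scaled for depth, these were 593 ± 264 CPM in BPA cells and 254 ± 66.2 CPM in normal cells (SD, n = 2 each). The groups did not overlap, at 780.0 and 406 CPM in BPA cells and 207 and 301 CPM in normal cells. The log2 fold change was 1.26 ± 0.55, with an unadjusted p of 0.0402 and an adjusted p of 0.372 in edgeR. DESeq2 gave it an adjusted p of 0.240. Leaving out 1 library at a time gave log2 fold changes of 0.75, without BPA replicate 1 and with an unadjusted p of 0.192 in edgeR, to 1.68, without BPA replicate 2.

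Rab7, which drives fusion of late endosomes and autophagosomes with lysosomes, had 392 and 616 CPM in BPA cells and 374 and 403 CPM in normal cells. The groups overlapped, and the log2 fold change was 0.36 ± 0.51. The related sequence Rab7-ps1 had 25 and 28 reads in BPA cells and 508 and 75 in normal cells, so Rab7 counts carry the same doubt as those of Rab11b. Arl8a, with the role of Arl8b, had 7 and 1789 reads in BPA cells and 962 and 1189 reads in normal cells. Rab7b, of transport from late endosomes to the trans-Golgi network, had 1 and 353 reads in BPA cells and 428 and 66 reads in normal cells. Arl8a and Rab7b were thus near 0 in BPA replicate 1 alone. Rab9, of the same route, had 0 and 1 reads in BPA cells and 0 and 0 in normal cells.

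Secretory and lysosome-related organelles were represented by Rab32 and Rab27b, both below normal cells in both BPA libraries. Rab32, known for melanosome biogenesis and mitochondria, had 0 and 0 reads in BPA cells and 173 and 100 reads in normal cells. It was at least 65.7-fold lower in BPA against the floor of 3 reads, with an unadjusted p of 0.0439 and an adjusted p of 0.372 in edgeR and an adjusted p of 0.391 in DESeq2. Rab27b, of secretory granules and exosomes, had 1 and 25 reads in BPA cells and 81 and 379 reads in normal cells.

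The cilium group had members on both sides. Rab28, a ciliary GTPase whose human gene is mutated in cone-rod dystrophy, had 3211 and 4511 reads in BPA cells and 1754 and 2103 reads in normal cells. It averaged 608 ± 332 CPM in BPA cells and 211 ± 83.2 CPM in normal cells (SD, n = 2 each), with no overlap. Its log2 fold change was 1.53 ± 0.60, with an unadjusted p of 0.0236 and an adjusted p of 0.372 in edgeR and an adjusted p of 0.143 in DESeq2. Leaving out 1 library at a time gave log2 fold changes of 0.89, without BPA replicate 2, to 2.08, without BPA replicate 1. The unadjusted p in edgeR was 0.136 without BPA replicate 2 and 0.124 without normal replicate 1. In the fit of abundant genes, which of the 6 members at an unadjusted p under 0.05 held only Rab28 and Arl8b, their unadjusted p-values were 0.0374 and 0.0780 in edgeR. Rab34, needed to start cilium formation, had 1 and 0 reads in BPA cells and 142 and 185 reads in normal cells. Arl6, which recruits the BBSome coat to cilia, had 8 and 2 reads in BPA cells and 297 and 361 reads in normal cells. Rab23, a negative regulator of hedgehog signalling, had 269 and 0 reads in BPA cells and 511 and 240 reads in normal cells. Arl13b, mutated in human Joubert syndrome, overlapped between the groups, and Arl3, which releases lipid-linked cargo in cilia, had 0 and 0 reads in BPA cells and 170 and 0 in normal cells.

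Of the remaining members, Arl16 and Rab40c were at 0 in BPA cells. Arl16 had 0 and 0 reads in BPA cells and 170 and 285 reads in normal cells, at least 109-fold lower in BPA. Rab40c, part of a cullin ubiquitin ligase, had 0 and 0 reads in BPA cells and 160 and 219 reads in normal cells, at least 91.2-fold lower. Their unadjusted p-values in edgeR were 0.0654 and 0.0601, so that 0 reads in both BPA libraries did not bring either past the unadjusted threshold. Arl15 had 3 and 0 reads in BPA cells and 229 and 266 reads in normal cells. Arl4c, which brings cytohesins to the plasma membrane, had 701 and 164 reads in BPA cells and 422 and 96 reads in normal cells, and Arl10 had 0 and 45 reads in BPA cells and 207 and 51 in normal cells. Arl9 had 1 and 154 reads in BPA cells and 0 and 0 in normal cells. Rab36, Rab39b and Rab42 had at most 2 reads in any library.

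**Figure D3:**
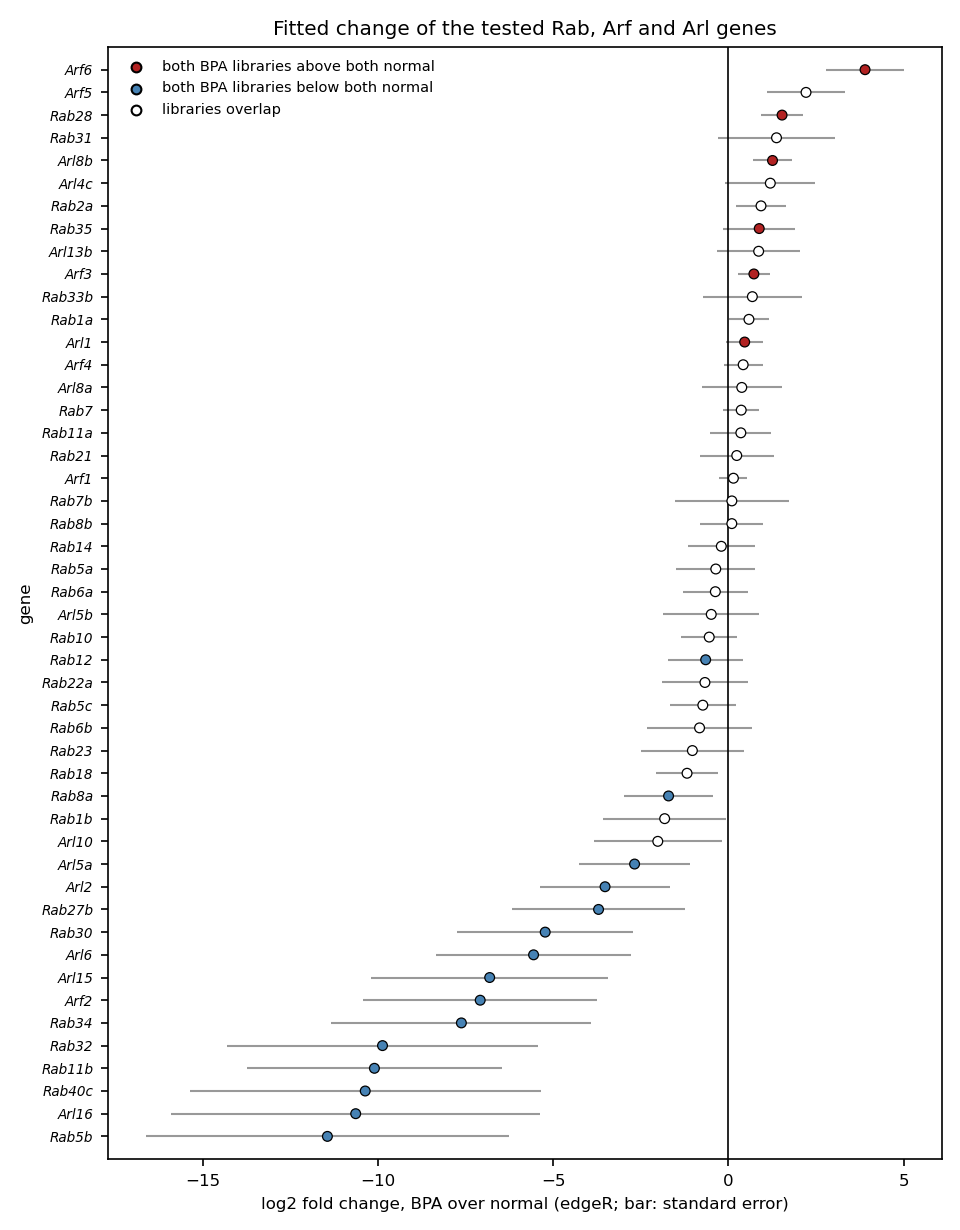
Fitted log2 fold change of the 48 tested members, BPA over normal (horizontal axis). The bar is a standard error derived from the F statistic of edgeR's test. Colour shows whether the 2 BPA libraries lie above, below or among the 2 normal libraries. Arf6 stands at the top at 3.90, and the lowest values belong to genes with 0 or 1 read in BPA (Rab5b, Arl16, Rab40c, Rab11b and Rab32). The fitted values and bars of these genes depend on the prior count, and the values are no bound.

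By the limits below, near-absence from a whole condition was more frequent in BPA than in normal cells, for members and for all genes. Of 43 members with at least 100 reads in both normal libraries, 9 had 10 or fewer in both BPA libraries (20.9%, against 12.3% of all such genes): Arf2, Arl6, Arl15, Arl16, Rab5b, Rab11b, Rab32, Rab34 and Rab40c. Arl6 was the nearest inside that limit, with 8 and 2 reads in BPA cells, and Rab30 the nearest outside, with 11 and 4. In the opposite direction 0 of 22 members qualified, against 0.456% of all such genes. Arl9, with 1 and 154 reads in BPA cells and 0 and 0 in normal cells, had too few reads in BPA replicate 1 to enter.

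The BPA libraries also disagreed with each other. In 12 of the 48 tested members the BPA replicates differed by at least 10-fold with 100 or more reads in 1 of them (25.0%, against 35.2% of all genes). Rab6b, Rab21, Rab22a, Rab23 and Rab33b were high in replicate 1, and Arl5a, Arl5b, Arl8a, Rab1b, Rab7b, Rab8a and Rab31 in replicate 2. The normal replicates differed so in 0 of 48 members, against 9.72% of all genes. Across the 48 members, which share these libraries and their depth, Spearman's rho was 0.696 for the BPA pair of libraries and 0.799 for the normal pair. Over all tested genes these were 0.549 and 0.741. For the members, BPA replicate 1 had a rho of 0.728 and 0.752 with the normal libraries, and BPA replicate 2 one of 0.620 and 0.686.

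**Figure D4:**
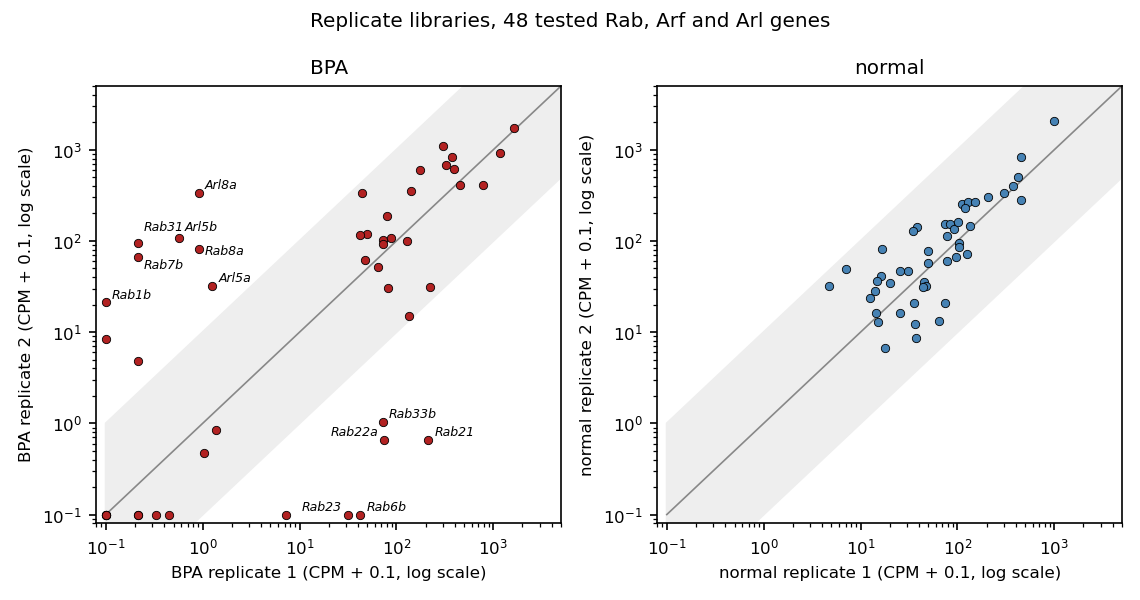
CPM plus 0.1 of the 48 tested members in replicate 1 (horizontal) and replicate 2 (vertical) of BPA cells (left) and normal cells (right), on log axes, with the grey band marking less than 10-fold apart. In BPA, 12 named members with at least 100 reads in 1 replicate lie outside the band, 5 high in replicate 1 and 7 in replicate 2, and in normal cells 0 do.

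The machinery that loads, unloads and reads these GTPases was described from 7 lists. Of 233 listed genes 198 had a row and 158 were tested, of which 68 had a positive log2 fold change, with a median of -0.30 for all and -0.02 for all genes of the table. None passed edgeR, where 0.0% of all genes did, while 3 had an unadjusted p under 0.05 in the higher direction (1.90%, against 2.41% of all genes) and 18 in the lower (11.4%, against 7.23%). DESeq2 called 0 higher (0.521% of all genes) and 7 lower (4.43%, against 2.53%). Rab effectors leaned lowest, with 7 of 27 positive and a median of -1.04. Rab GAPs had 7 of 22 positive (median -0.71), Arf GAPs 7 of 17 (-0.76) and Arf and Arl effectors 15 of 34 (-0.24). Rab exchange factors had 19 of 36 positive (0.07), prenylation and GDI genes 6 of 11 (0.12) and Arf exchange factors 7 of 11 (0.28).

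Partners of the members named above were found on both sides. Eea1, the Rab5 effector that tethers early endosomes, had 4308 and 4815 reads in BPA cells and 4655 and 1367 reads in normal cells, with a log2 fold change of 1.23 ± 0.56 and an unadjusted p of 0.0456 in edgeR. Tbc1d23, a GAP-domain protein that captures endosome-derived vesicles at the Golgi, had 688 and 1512 reads in BPA cells and 466 and 221 reads in normal cells. Fbxo8, an Arf exchange factor homologue, had 828 and 662 reads in BPA cells and 0 and 170 reads in normal cells. Once scaled for depth, these 3 were higher in each BPA library than in either normal one.

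The genes with fewer reads included several at 0 in BPA. Ocrl, an inositol phosphatase that binds many Rabs, had 0 and 0 reads in BPA cells and 1072 and 465 reads in normal cells, at least 370-fold lower, with an adjusted p of 0.372 in edgeR and 0.000916 in DESeq2. Trappc6b, a subunit of the TRAPP exchange complexes for Rab1 and Rab11, had 0 and 0 reads in BPA cells and 904 and 121 reads in normal cells, and Dennd2c, a DENN-domain protein, had 0 and 0 reads in BPA cells and 662 and 324 in normal cells. Rilpl1, which binds Rab8 and Rab10 after their phosphorylation, had 2 and 1 reads in BPA cells and 604 and 383 reads in normal cells. Arfip1, which binds Arl1 and Arf proteins through a BAR domain, had 5 and 2 reads in BPA cells and 424 and 568 reads in normal cells. Its relative Arfip2 had 0 and 0 reads in BPA cells and 218 and 150 reads in normal cells. Rce1, the protease that trims prenylated proteins, had 0 and 0 reads in BPA cells and 167 and 73 reads in normal cells. Evi5, Evi5l, Tbc1d14, Tbc1d22b, Rgp1, Rin3, Psd, Mical1, Vps45, Borcs5 and Unc119b completed the 18, with at most 87 reads in any BPA library.

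The second question was where m6A enrichment of these transcripts differed. The authors' deposited table held 3331 differential peaks with replicates pooled, so values below have no replicate error. Each peak has 1 value in reads-per-million (RPM) for the immunoprecipitate (IP) and 1 for the input of each condition. Over these peaks alone the RPM columns sum to between 826089 and 894159. RPM is therefore not read here as a share of all reads of a library, and it is not comparable with CPM of whole genes. Members carried 19 of these peaks in 12 genes (12 of 57, 21.1%, against 17.5% of all genes). Of the 12 members with a mean of at least 1000 reads, 7 had a peak (58.3%, against 56.7% of all such genes), so the share was near that of other genes of like abundance. A positive log2 fold change in the authors' deposited table was given to 11 of the 19 (57.9%, against 68.8% of all peaks). That fold change compares IP over input in BPA cells with IP over input in normal cells, and every false discovery rate for the 19 was at most 0.00707. It exceeded the log2 ratio of the RPM columns by 0.78 in all 826 peaks of the table with at least 100 RPM in each column, so a deposited value near 0 has a negative RPM ratio. Coordinates are 1-based in the build of that table, read as GRCm39.

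Rab28 had 1 peak at chr5:41860827-41860876 (minus strand). Its IP value was 317 RPM in BPA cells and 300.1 RPM in normal cells, while its input value was 860.4 RPM in BPA cells and 319 RPM in normal cells. The difference therefore stood in the input, and the log2 fold change in the authors' deposited table was -0.57. Input values and read counts come from the same RNA-seq libraries, so their shared direction is no separate evidence. Arf3, with more reads in BPA cells too, had a peak at chr15:98636040-98636139 (minus strand) with 129 RPM in the BPA IP and 224 RPM in the normal IP, and 799 RPM in the BPA input and 269 RPM in the normal input. Its value in the authors' deposited table was -1.59.

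Arl8b had peaks in both directions. At chr6:108798636-108798660 (plus strand) the IP had 0.260 RPM in BPA cells and 446 RPM in normal cells, with 770.0 RPM in the BPA input and 137 RPM in the normal input, and the authors' deposited table gives -12.48. At chr6:108800461-108800585 the IP had 883 RPM in BPA cells and 193 RPM in normal cells, with 1029 RPM in the BPA input and 273 RPM in the normal input. IP and input thus were both higher in BPA at this site, and the authors' deposited table gives 1.06 there, against 0.28 from the RPM columns.

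Arl1 had 2 peaks 125 bases apart on the plus strand with opposite directions. At chr10:88579038-88579187 the IP had 937 RPM in BPA cells and 766 RPM in normal cells, and the input 849 RPM in BPA cells and 1402 RPM in normal cells. At chr10:88579313-88579362 the IP had 373 RPM in BPA cells and 660.5 RPM in normal cells, and the input 1724 RPM in BPA cells and 357 RPM in normal cells. The authors' deposited table gives 1.79 for the upstream peak and -2.32 for the downstream one. The BPA input lay below the normal input at one of these neighbours and above it at the other.

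Arf1 had 3 peaks on the minus strand. At chr11:59102513-59102537 the IP had 190 RPM in BPA cells and 382 RPM in normal cells, and the input 550.0 RPM in BPA cells and 312 RPM in normal cells (authors' deposited table: -1.05). Only 25 bases away, at chr11:59102563-59102637, the IP had 113 RPM in BPA cells and 130.3 RPM in normal cells, but the input had 1.22 RPM in BPA cells and 69.8 RPM in normal cells (authors' deposited table: 6.36). At chr11:59104060-59104195 the IP had 269.9 RPM in BPA cells and 82.2 RPM in normal cells, and the input 484 RPM in BPA cells and 148 RPM in normal cells, which gives 0.01 from the RPM columns and 0.79 in the authors' deposited table. The value 1.22 RPM is the smallest above 0 in the BPA input column, as 0.26 RPM is in the BPA IP and 0.19 RPM in the normal IP.

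An input near the lowest value of its column recurred. Under 12 RPM in the BPA input were 8 of the 19 member peaks (42.1%), and 48.4% of all peaks. Rab11b had a peak at chr17:33966708-33966757 (minus strand) with 115 RPM in the BPA IP and 55.9 RPM in the normal IP, and with 1.22 RPM in the BPA input and 87.5 RPM in the normal input. Its low BPA input and its 1 and 0 reads in the BPA RNA-seq libraries come from the same libraries and are no separate evidence. The IP of BPA cells nevertheless held reads assigned to this peak of Rab11b. Whether some came from a related copy such as Rab11b-ps2 was not tested. The authors' deposited table gives 7.94. Rab1a, at chr11:20175733-20175757 (plus strand), had 121 RPM in the BPA IP and 259 RPM in the normal IP, and 6.11 RPM in the BPA input and 373 RPM in the normal input, and the authors' deposited table gives 5.62. The gene count of Rab1a, at 2598 and 5931 reads in BPA cells, shows no such near-absence over the whole gene.

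Peaks with almost no signal in the normal IP made up another set. Under 12 RPM in the normal IP were 5 of the 19 member peaks (26.3%), and 8.56% of all peaks. The member share counts both Rab23 peaks, which have the same IP values. Rab6a, at chr7:100290298-100290372 (plus strand), had 465 RPM in the BPA IP and 0 in the normal IP, and 11.0 RPM in the BPA input and 180.2 RPM in the normal input, and the authors' deposited table gives 17.40. Rab10, at chr12:3297753-3297852 (minus strand), had 464 RPM in the BPA IP and 0.190 RPM in the normal IP, with an input of 4.89 RPM in BPA cells and 129 RPM in normal cells (authors' deposited table: 16.71). Its other peak, in 3 blocks between chr12:3303349-3314689, had 443 and 321 RPM in the BPA and normal IP and 1027 and 359 RPM in the BPA and normal input, with -0.28 in the authors' deposited table. Both Rab10 peaks thus had more IP signal in BPA, while the BPA input lay below the normal input at the first and above it at the other.

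Rab23 and Arl5a held the other 3 of these 5 peaks. The Rab23 peaks at chr1:33763997-33764121 and chr1:33773783-33773832 (plus strand), 9661 bases apart, have the same IP values, 329 RPM in BPA cells and 0.560 RPM in normal cells. Their inputs differ, with 329 RPM in BPA and 43.4 RPM in normal cells at the upstream site and 4.89 RPM in BPA and 0 in normal cells at the downstream site. The authors' deposited table gives 7.07 and 5.53 for them. Arl5a, at chr2:52292163-52292212 (minus strand), had 333 RPM in the BPA IP and 0.370 RPM in the normal IP, with 1.22 RPM in the BPA input and 0 in the normal input (authors' deposited table: 8.09).

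Rab35 had 2 peaks 275 bases apart on the plus strand, both negative in the authors' deposited table. At chr5:115783751-115783775 the IP had 130.2 RPM in BPA cells and 91.4 RPM in normal cells, and the input 392 RPM in BPA cells and 48.7 RPM in normal cells (authors' deposited table: -1.72). At chr5:115784051-115784175 the IP had 0 in BPA cells and 101 RPM in normal cells, and the input 1.22 RPM in BPA cells and 16.4 RPM in normal cells (authors' deposited table: -5.59). A higher BPA input stands behind the first value and an IP listed at 0 behind the other. Of the 6 members with more than 1 peak, Arf1, Arl1, Arl8b and Rab10 had both directions in the authors' deposited table.

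**Figure D5:**
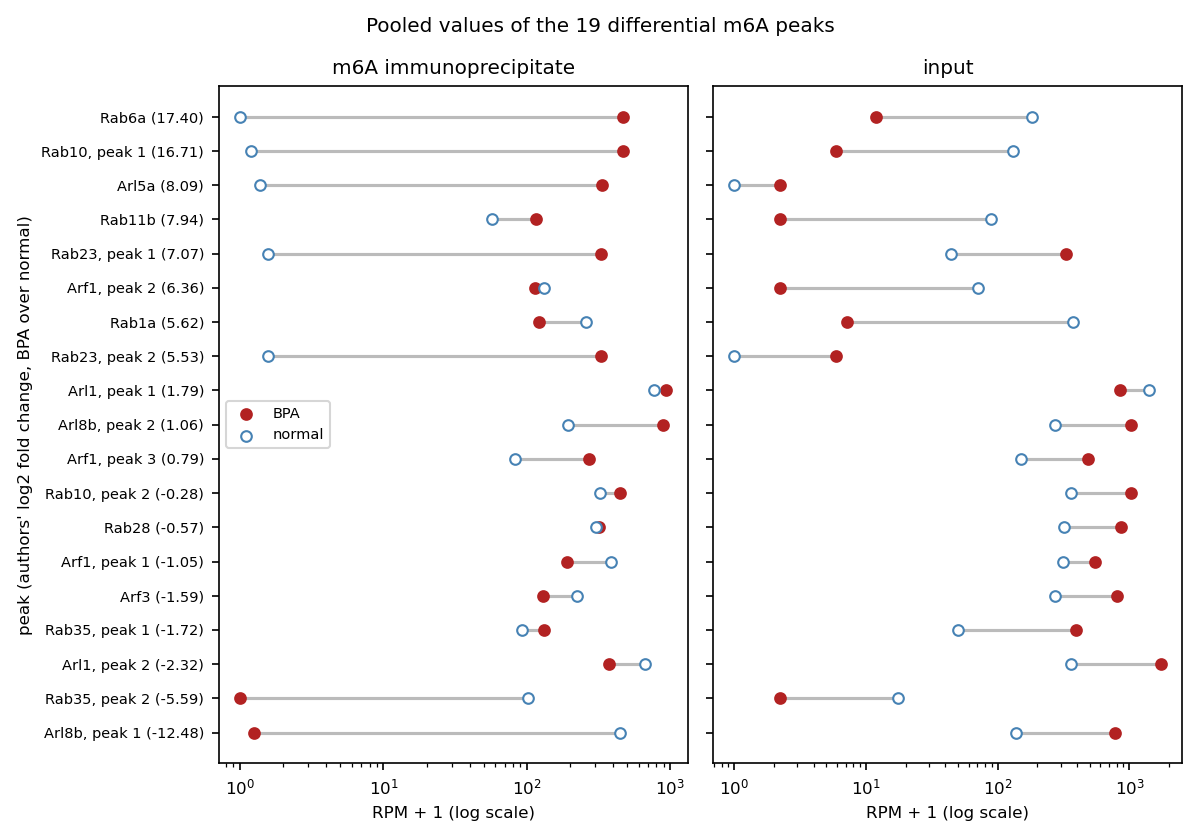
Pooled RPM plus 1 (log axes) of the 19 member peaks in the m6A immunoprecipitate (left) and the input (right), with BPA as filled and normal as open circles, ordered by the log2 fold change of the authors' deposited table given in brackets. The 8 topmost peaks have an IP near 0 in normal cells, an input under 12 RPM in BPA cells, or both, while the peaks between 1.79 and -2.32 have at least 48.7 RPM in all 4 columns.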

How the data were processed

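Read counts per gene (Ensembl IDs, whole numbers) were deposited by the authors. The submitters' processing notes list DESeq2 1.38.3, featureCounts 2.0.1, HISAT2 2.2.1 and fastp 0.20.1, and the builds GRCm39 and GRCh38, with no role for any. The count columns are named by condition and number without an assay, and were taken as the RNA-seq libraries, with WT read as normal. Of 12404 gene IDs, 12271 had a symbol. The peak table was deposited by the authors with pooled RPM (reads-per-million) values, a log2 fold change, a p-value and a false discovery rate per peak, and the sources used here do not name its caller or test. The peaks' build was taken to be GRCm39, because 11.3% of 3176 peaks, and 3 of the 19 member peaks, lay inside their gene's span in GRCm38.p6. No genome of that build was used here, so exons, introns and peak sequences are not analysed here. All value columns mapped to a sample or pool.

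The test of counts was that of edgeR 4.0.16 (R 4.3.3): TMM scaling, filterByExpr (minimum count 10, minimum total 15), robust dispersions, the quasi-likelihood test, and a threshold of 0.05 on Benjamini-Hochberg adjusted p over 8645 genes. The SE of a log2 fold change is its size divided by the square root of that test's F statistic. CPM used TMM library sizes. DESeq2 1.42.0, other scaling, no filter, abundant genes alone, a replicate block and leaving out each library were alternatives. For the change in IP over input of a peak, 1 RPM was added to every column before log2. RPM ratios set beside the authors' values had none added. Genes at 0 reads in a group are given as a bound against 3 reads over the group. Members, lists, roles, motifs and the rule for genes given in full (unadjusted p under 0.05, a peak, the 10 highest by CPM, or 0 reads in 1 condition with at least 100 in each library of the other) were chosen with earlier results of these data known.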

Additional observations from a re-analysis of the deposited data

How the results depend on the processing

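No alternative fitted with edgeR called a member, and DESeq2 called 3, together with 264 of all genes and 7 of the pathway lists, where edgeR called 0 of each. Leaving out 1 library at a time gave 0 to 1 calls over all genes, and 0 to 11 members at an unadjusted p under 0.05 against 6 with all libraries. Without normal replicate 1 there were 0, without BPA replicate 1 there were 11, and without normal replicate 2 there were 2. DESeq2 gave 13 such members, and a fit restricted to genes averaging 1000 reads or more gave 1. Shares of all genes at an unadjusted p under 0.05 are given here for the main fit alone. Counts of such members in other settings, some with other sets of genes, therefore do not show whether members differed from other genes. The fit of genes averaging 1000 reads or more holds 12 members by construction, 8 positive and 4 negative with a median of 0.16. The median of the tested members ranged from -0.68 to -0.10 in the other settings. With the replicate block, 0 members were called, 4 had an unadjusted p under 0.05, and 17 were positive and 31 negative. The labels give no pairing, and deviations of same-numbered libraries had a correlation of -0.0017 over 8645 genes. DESeq2 size factors moved the median of all tested genes by 0.14. The median shifted by -0.35 with no filter, by -2.85 without BPA replicate 1 and by -1.11 without BPA replicate 2. Those fits tested 12404, 11088 and 11129 genes, so these shifts also hold the change in the set of genes. Log2 fold changes of 18 of the 48 tested members took both signs as libraries were left out in turn, among them, of the genes given in full, Arf1 (-0.17 to 0.79), Arf4 (-0.14 to 0.93), Rab1a (-0.57 to 1.32), Rab2a (-0.12 to 1.66) and Rab6a (-0.71 to 0.21), and Arf1 had -0.11 among abundant genes. The peak of Arf1 starting at 59104060 had -0.015 with 5 RPM added, against 0.0057 with 1 RPM. Peaks with a column near 0 take their size from the added RPM: Rab6a had 16.20 with 0.1 RPM and 10.09 with 5 RPM. The causes were not tested. Precision is limited by 2 libraries a group and, for peaks, by pooled values with no replicate.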
